A study of Mesocricetus auratus with 24 samples.

Results

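The genes described here encode the synaptic vesicle release machinery, the proteins that store neurotransmitter vesicles at the nerve terminal and fuse them with its membrane. The list names 8 genes: Snap25, Stx1a and Vamp2 of the SNARE complex, the calcium sensor Syt1, the vesicle membrane proteins Syp and Sv2a, and the synapsins Syn1 and Syn2. A member was measured where a probe set of the array carried its symbol and no other, and the brightest such probe set was to be used. This gave 7 of the 8 genes, out of 19938 genes tested, and each of the 7 had 1 probe set. The only probe set for Vamp2 also carries the symbol Ubr3, so Vamp2 has no value here.

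At a synapse, SNARE proteins of the vesicle and of the plasma membrane zip together and pull the membranes into contact, and calcium binding to synaptotagmin triggers their fusion. Synapsins tether vesicles in the reserve pool, and SV2 proteins set how ready vesicles are for release. Sv2a is the binding site of the antiepileptic drug levetiracetam. The inferior colliculus (IC) is the auditory midbrain centre in which sound-induced seizures begin.

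RNA came from the IC of 24 hamsters aged 16 weeks and of about 60 g body weight. GASH/Sal hamsters carry inherited audiogenic epilepsy and convulse on loud sound, and control Syrian hamsters were the other strain. There were 6 stimulated GASH/Sal, 6 naïve GASH/Sal, 6 stimulated Syrian and 6 naïve Syrian animals, with 1 array each, and the stimulated ones were sampled 60 min after the sound. In stimulated GASH/Sal animals sound and seizure came together and cannot be told apart, and the strains may differ at many loci. Hamster RNA was hybridised to probes designed on the mouse genome, so signals of a gene were compared between arrays and not between genes. A change in a probe's match between the strains and a change in RNA amount cannot be told apart.

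Values are log2 signals, so a difference of 1 stands for a doubling. Array medians lay between 4.50 and 4.65, and no column was a copy of another. A pair of arrays stood apart, replicate 6 of naïve GASH/Sal and replicate 4 of stimulated Syrian, with median correlations of 0.971 and 0.969 to the others against 0.979 to 0.989 for the other 22. Animal names follow 2 styles, here called label series A (replicates 1 to 3) and label series B (replicates 4 to 6), with 3 arrays of every group in each. The labels do not say what the naming styles mean. Fos, the immediate-early gene that marks recent neuronal activity, was 1.60-fold higher in stimulated than in naïve GASH/Sal animals and 1.39-fold higher in stimulated than in naïve Syrian animals. Over both strains its limma adjusted p was 0.00222. Within a strain it did not pass, with a limma adjusted p of 0.0576 in GASH/Sal and 0.570 in Syrian animals. Of the markers of the IC and midbrain, 7 of 9 had a signal at or above the median gene. Their percentiles ran from 40.7 (Otx2) to 98.8 (Meis2), with a median of 67.2 and Tfap2d at 93.4. Signals above the median gene were also found for 4 of 7 cerebellum markers (percentiles 14.5 to 64.5, Gabra6 at 20.3) and for 1 of 3 forebrain markers, Emx1 at 82.4, with Neurod6 at 1.81. These percentiles place probes of unequal brightness and are given as a description.

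All 7 members were bright, between percentile 88.7 (Stx1a) and 99.7 (Snap25) of the mean signals. Brightness depends on the probes as well as on the RNA, so it gives no order of abundance. Their spread over the 24 arrays was uneven. The SD of Syn1 ranked at percentile 99.2 of all genes and that of Sv2a at 98.5, against 22.7 for Stx1a and 22.3 for Syp. The values by array are drawn in the plot of single members across the 4 groups. Counts of arrays outside the range of another group or series are given below as a description. Such counts were not made over all genes.

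**Figure D1:**
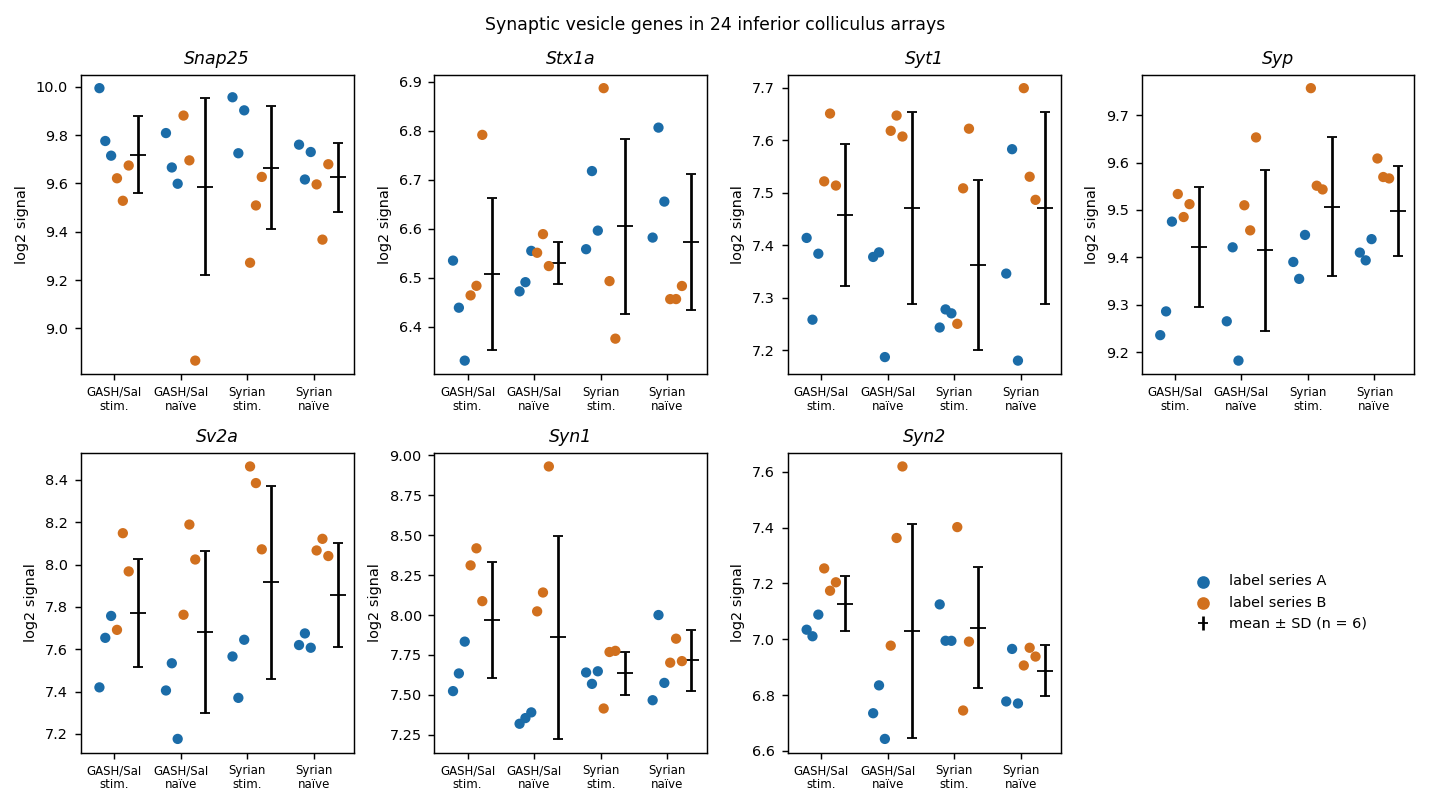
Each panel shows the log2 signal of 1 member in the 24 arrays, with stimulated and naïve GASH/Sal animals left of stimulated and naïve Syrian animals. Points are arrays, coloured by label series, and bars give the mean ± SD of 6 arrays. The 4 groups overlap for every member, and series B points of Sv2a and Syp sit above nearly all series A points.

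The first question was whether vesicle genes answer loud sound within 60 min in the seizure-prone strain. After adjustment over all genes, 0 of 7 members passed limma's test in GASH/Sal animals, where 0% of the 19938 genes passed, and 0 of 7 passed at an unadjusted p under 0.05, where 4.46% of genes did. Differences of stimulated minus naïve GASH/Sal animals ran between -0.023 for Stx1a and 0.13 for Snap25, with standard errors of 0.065 to 0.15. The 95% intervals of all 7 lay within -0.20 and 0.42. Leaving out the naïve GASH/Sal array that stood apart took the Snap25 difference to 0.0063, that of Syn1 to 0.29 against 0.11 with it, and that of Syn2 to 0.20 against 0.099. With both outlying arrays left out, the unadjusted limma p was 0.0146 for Syn1 and 0.0292 for Syn2 (adjusted p = 0.754 and 0.803). That fit was chosen after the data had been seen, and 0 of all genes passed adjustment in it. The share of all genes at an unadjusted p under 0.05 was not counted there, so these p-values have no background beside them.

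In Syrian controls 0 of 7 members passed after adjustment (0% of all genes), and 0 of 7 without it (6.64% of all genes). The differences ran between -0.11 for Syt1 and 0.15 for Syn2, and the intervals lay within -0.39 and 0.37. Averaged over both strains, no member passed adjustment for sound (0 of 7), where Fos alone of all genes did (0.00502% of genes). At an unadjusted p under 0.05 the count of members was 0 as well, against 7.39% of genes. The bounds were narrower here, and the intervals of the 7 members lay within -0.21 and 0.28.

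Syn2, which encodes one of the synapsins that hold vesicles in the reserve pool, came closest to a response averaged over both strains (limma, unadjusted p = 0.107). Within GASH/Sal animals the smallest unadjusted limma p was that of Snap25 (0.248), and within Syrian animals that of Syt1 (0.156), which was lower after sound. The signal of Syn2 was 7.01, 7.13 and 7.25 (lowest, median and highest) in stimulated GASH/Sal animals, against 6.64, 6.91 and 7.62 in naïve GASH/Sal animals. Stimulated Syrian animals had 6.74, 6.99 and 7.40, against 6.77, 6.92 and 6.97 in naïve Syrian animals. In Syrian animals 5 of the 6 stimulated arrays lay above every naïve array and the remaining one lay below them all. In GASH/Sal animals the stimulated range fell inside the naïve range. How often other genes lie so was not counted. The mean difference over both strains was 0.13 ± 0.076 (SE; limma, adjusted p = 0.717). Among the 12 arrays of label series A alone it was 0.25 (adjusted p = 0.0467), a fit in which 2.23% of all genes passed, and among those of series B it was -0.00044. The remaining members did not pass in series A alone.

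The strains were also compared in how they respond. The response of GASH/Sal animals minus that of Syrian animals passed for 0 of 7 members after adjustment (0% of genes) and for 0 of 7 without it (3.68% of genes). Values ran between -0.055 for Syn2 and 0.19 for Syn1, and the intervals lay within -0.37 and 0.63. The Syn1 value was 0.37 without replicate 6 of naïve GASH/Sal and 0.085 without replicate 2 of naïve Syrian. Those bounds are wide, and a strain difference in response of 1.5-fold in Syn1 lies inside its interval of -0.25 to 0.63. Sv2a had a value of 0.35 in label series A and of -0.29 in series B.

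**Figure D2:**
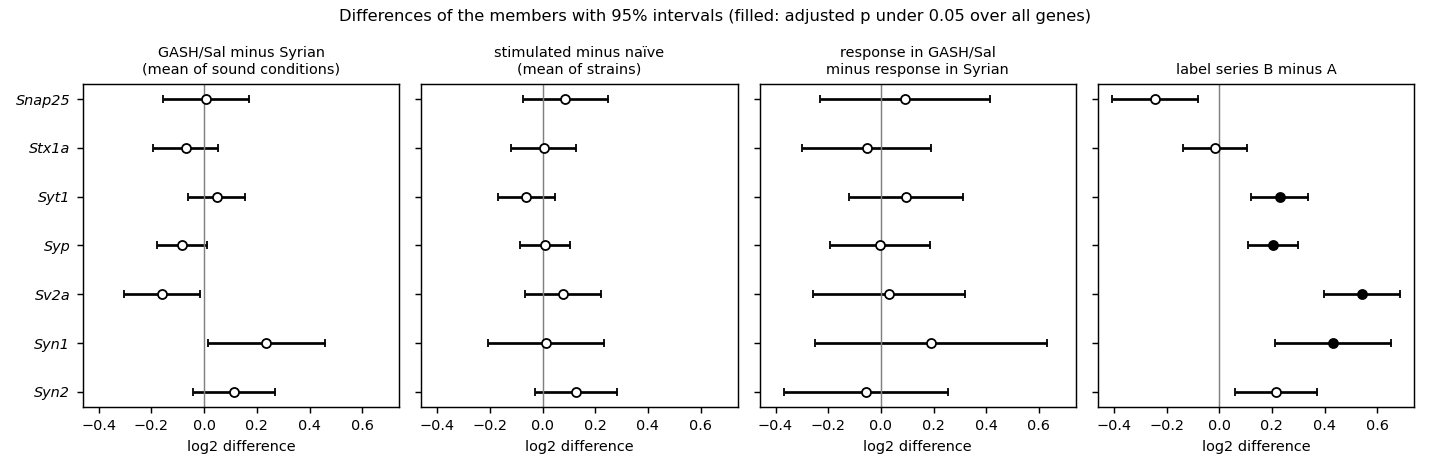
Log2 differences of the 7 members (rows) with 95% intervals from limma, in panels for strain, sound, the strain difference in response and label series. Filled points passed an adjusted p of 0.05 over all 19938 genes: none in the first 3 panels and Syt1, Syp, Sv2a and Syn1 in the last.

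The other question was whether the seizure-prone strain carries a different level of the release machinery. Sv2a was lower and Syn1 higher in GASH/Sal than in Syrian animals at an unadjusted p, although adjustment over all genes left neither. Averaged over stimulated and naïve animals, 0 of 7 members passed adjustment (0.01% of genes, which is 2 genes). At an unadjusted p under 0.05 there were 2 of 7, against 7.99% of genes. In naïve animals alone 0 of 7 passed after adjustment (0% of genes) and 0 of 7 without it (6.02% of genes). Stimulated animals gave 0 of 7 after adjustment (0% of genes) and 1 of 7, Syn1, without it (5.42% of genes). In bulk tissue, fewer cells of a type and less RNA per cell cannot be told apart.

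Of the SNARE proteins, Snap25, the plasma membrane SNARE that is cut by botulinum toxin A, differed between the strains by 0.0069, and Stx1a, the syntaxin that pairs with it, by -0.070. Snap25 ranged over 9.53 to 9.99 in stimulated GASH/Sal, 8.87 to 9.88 in naïve GASH/Sal, 9.27 to 9.96 in stimulated Syrian and 9.37 to 9.76 in naïve Syrian animals. The lowest Snap25 signal belonged to the naïve GASH/Sal array that stood apart, and the groups overlapped. Stx1a ranged over 6.33 to 6.79, 6.47 to 6.59, 6.38 to 6.89 and 6.46 to 6.81 in the same 4 groups.

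Syt1, the synaptotagmin that senses calcium for fast release, differed by 0.047 between the strains. Its range was 7.26 to 7.65 in stimulated GASH/Sal, 7.19 to 7.65 in naïve GASH/Sal, 7.24 to 7.62 in stimulated Syrian and 7.18 to 7.70 in naïve Syrian animals. The 4 ranges nearly coincided, while the medians in the same order were 7.46, 7.50, 7.27 and 7.51.

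Among the vesicle membrane proteins, Sv2a had 7.42, 7.72 and 8.15 (lowest, median and highest) in stimulated GASH/Sal animals, against 7.37, 7.86 and 8.46 in stimulated Syrian animals. Naïve GASH/Sal animals had 7.18, 7.65 and 8.19, against 7.61, 7.86 and 8.12 in naïve Syrian animals. Each range overlapped its counterpart, but 3 of the 6 naïve GASH/Sal arrays lay below every naïve Syrian array, a count not made over all genes. By mean the order from high to low was stimulated Syrian, naïve Syrian, stimulated GASH/Sal and naïve GASH/Sal. The stimulated and naïve groups of each strain, neighbours in that order, did not differ past adjustment, and the middle pair was not tested. The strain difference was -0.16 ± 0.071 (SE; 95% interval -0.30 to -0.014), or 0.896-fold, with an unadjusted limma p of 0.0322 and an adjusted p of 0.603. It was -0.089 in label series A, -0.23 in series B and -0.14 once the 2 outlying arrays were left out. With no label series in the model its unadjusted limma p was 0.200.

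Syp, which encodes synaptophysin, a major protein of the vesicle membrane, pointed the same way by less. It had 9.24, 9.48 and 9.53 in stimulated GASH/Sal animals, against 9.35, 9.50 and 9.76 in stimulated Syrian animals. Naïve GASH/Sal animals had 9.18, 9.44 and 9.65, against 9.39, 9.50 and 9.61 in naïve Syrian animals. The groups overlapped, and the strain difference was -0.084 ± 0.046 (SE; limma, unadjusted p = 0.0781).

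Of the synapsins, Syn1 carried the widest spread. It had 7.52, 7.96 and 8.42 in stimulated GASH/Sal animals, against 7.42, 7.64 and 7.78 in stimulated Syrian animals. Naïve GASH/Sal animals had 7.32, 7.71 and 8.93, against 7.47, 7.71 and 8.00 in naïve Syrian animals. Of the stimulated GASH/Sal arrays, 4 of 6 lay above every stimulated Syrian array. Naïve GASH/Sal arrays split evenly, with 3 above and 3 below the whole naïve Syrian range. These counts have no share over all genes beside them. The strain difference was 0.24 ± 0.11 (SE; 95% interval 0.016 to 0.46), or 1.18-fold, with an unadjusted limma p of 0.0362 and an adjusted p of 0.603. It was 0.15 with replicate 6 of naïve GASH/Sal left out and 0.11 with both outlying arrays left out. Syn2 differed by 0.11 ± 0.076 (SE; limma, adjusted p = 0.712), and by 0.062 with replicate 6 of naïve GASH/Sal left out.

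The label series was the term for which members passed adjustment over all 24 arrays. Series B minus series A passed after adjustment for 4 of 7 members, against 6.89% of all genes, of which 1171 of 1374 were higher in series B. The series were not a planned comparison and this contrast was added after the data had been seen. Bright genes passed more often, with 25.1% among the 2259 genes at least as bright as the dimmest member. Other genes of the vesicle cycle passed too, as counted with the wider vesicle cycle below. The cause of the series difference was not tested.

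Sv2a moved most. It lay between 7.69 and 8.46 in series B, against 7.18 and 7.76 in series A, and 11 of the 12 series B arrays exceeded every series A array. The difference was 0.54 ± 0.071 (SE), or 1.46-fold, with a limma adjusted p of 1.27e-05. Syp was 9.46 to 9.76 in series B, against 9.18 to 9.48 in series A, and again 11 of 12 arrays exceeded them all. Its difference was 0.20 ± 0.046 (SE; limma, adjusted p = 0.00548). Syt1 was 0.23 higher (adjusted p = 0.00640) and Syn1 0.43 higher (adjusted p = 0.0120). Separation of the series was not counted over all genes.

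Snap25 went the other way and did not pass, at -0.24 ± 0.079 (SE; limma, adjusted p = 0.0585). Syn2 was at 0.21 (adjusted p = 0.0881) and Stx1a at -0.015. Of the 7 differences 2 were below 0, and the 95% interval of Stx1a, -0.14 to 0.11, held 0. Whether the series shift differs between members was not tested. Snap25 passed when genes under the median signal were left out (adjusted p = 0.0356), and it was -0.15 (adjusted p = 0.139) with both outlying arrays left out. It also passed with 1 array left out, namely replicate 4 or 5 of naïve GASH/Sal or replicate 2 or 6 of naïve Syrian (adjusted p down to 0.0151), and Syn2 did so without replicate 5 of stimulated Syrian (adjusted p = 0.0247). Sv2a, Syp, Syt1 and Syn1 passed whichever array was left out, and with both outlying arrays left out.

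The series difference was also estimated within each strain, and the gap between the strains was tested separately. In GASH/Sal animals series B was higher for 4 of 7 members after adjustment, against 4.23% of all genes and 18.0% of the bright ones. These members were Syn1 by 0.81 (limma, adjusted p = 0.000115), Sv2a by 0.47, Syn2 by 0.37 and Syt1 by 0.26. In Syrian animals Sv2a alone of the 7 passed, at 0.61 (limma, adjusted p = 0.00408), against 0.747% of all genes and 3.36% of the bright ones. Series B of Sv2a lay between 8.04 and 8.46 in Syrian animals, against 7.37 and 7.67 in series A, with no overlap. The series also did not overlap for Syp in Syrian animals (9.54 to 9.76 in series B, 9.35 to 9.45 in series A). The same held for Syt1 in GASH/Sal animals (7.51 to 7.65 in series B, 7.19 to 7.41 in series A). Overlap was not counted over all genes.

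Among the 7 members Syn1 had the largest such gap, which did not pass adjustment. Its 6 series B arrays lay between 8.02 and 8.93 in GASH/Sal animals, above all 6 series A arrays at 7.32 to 7.83. In Syrian animals series B lay between 7.42 and 7.85, against 7.47 and 8.00 in series A. The strain difference of Syn1 was 0.61 in series B and -0.14 in series A, so the pooled 0.24 averaged values of opposite sign. The gap between them was 0.75 ± 0.17 (SE; 95% interval 0.41 to 1.10), with an unadjusted limma p of 0.000112 and an adjusted p of 0.278. For Syn2 the gap was 0.32 (limma, adjusted p = 0.631). No member passed for this gap after adjustment (0 of 7), nor did any of the 19938 genes (0%). With both outlying arrays left out the Syn1 gap was 0.55 (adjusted p = 0.140).

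**Figure D3:**
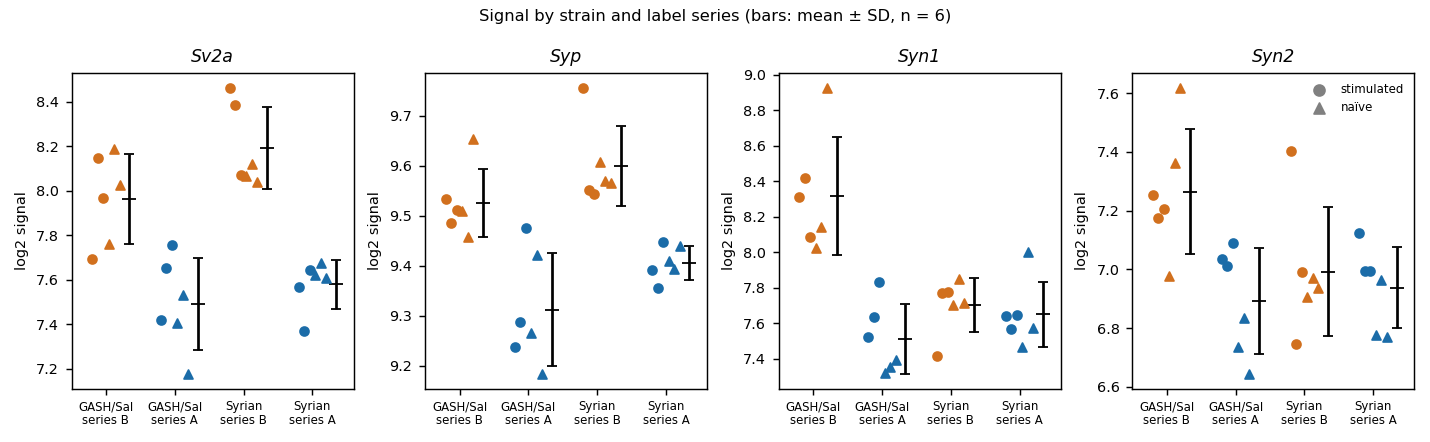
Log2 signal of Sv2a, Syp, Syn1 and Syn2 by strain and label series, with series B left of series A within each strain, circles for stimulated and triangles for naïve animals, and bars for the mean ± SD of 6 arrays. In Syrian animals Sv2a (8.04 to 8.46 against 7.37 to 7.67) and Syp (9.54 to 9.76 against 9.35 to 9.45) separate by series. Syn1 does so in GASH/Sal animals (8.02 to 8.93 against 7.32 to 7.83).

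Markers of neurons were read beside these values. Of 14 neuron markers, 12 were above 0 in GASH/Sal minus Syrian, with a median of 0.085 and 3 higher at an unadjusted p under 0.05 (7.99% of all genes in either direction). The mean of the 14 ran over 7.51 to 7.71 in stimulated GASH/Sal, 7.40 to 7.76 in naïve GASH/Sal, 7.48 to 7.54 in stimulated Syrian and 7.43 to 7.60 in naïve Syrian arrays. In series B minus A, 11 of 14 were above 0, with a median of 0.059 and 4 passing adjustment, against 6.89% of all genes and 25.1% of the bright ones. Most neuron markers are bright, with a median percentile of 94.9. The mean of the neuron markers lay between 7.45 and 7.76 in series B, against 7.40 and 7.62 in series A. Markers of other cells and of brain regions were counted in the same contrasts. Oligodendrocyte markers were above 0 for strain in 7 of 7 genes (median 0.065), astrocyte markers in 3 of 8, microglia markers in 3 of 8 and vessel and blood markers in 1 of 5. Cerebellum markers were above 0 for strain in 2 of 7 genes, and IC and midbrain markers in 5 of 9. In series B minus A, cerebellum markers were above 0 in 7 of 7 genes (median 0.16), astrocyte and microglia markers in 6 of 8 each, oligodendrocyte markers in 5 of 7 and vessel and blood markers in 4 of 5. IC and midbrain markers were above 0 for the series in 7 of 9 genes, with 1 past adjustment. In the gap of the strain difference between the series, neuron markers were above 0 in 12 of 14 genes (median 0.14) and astrocyte markers in 1 of 8 (median -0.20). After sound in Syrian animals, IC and midbrain markers were above 0 in 7 of 9 genes (median 0.18). Of these, 4 had an unadjusted limma p under 0.05 (6.64% of all genes). In naïve animals 3 of the 9 were higher in GASH/Sal at that threshold (6.02%). For the strain difference in response 8 of 9 were below 0, 2 of them at that threshold (3.68%). None of the 9 passed adjustment for sound, strain or response. The part of cell or tissue content in the members' values was not tested.

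The members were compared with each other over the 24 arrays after the group and series means had been removed. Over 21 pairs Pearson's r ran between -0.49 (Snap25 with Syp) and 0.60 (Syn1 with Syn2), with a median of 0.053, and 14 of 21 were above 0. No pair passed a permutation test after adjustment over the 21 pairs. The permutations kept each array within its group and label series, so a shift that 2 members share in such a set stayed in every permutation. The permutation p therefore does not test the whole of r against 0. For the synapsins Spearman's rho was 0.51 (permutation p = 0.222 for r and 0.423 for rho, adjusted 0.466 and 0.698), and r was 0.27 without the 2 most extreme arrays. It was 0.63 in label series A alone, 0.29 in series B alone and 0.65 after median centring. With the group means alone removed, the median of the 21 pairs was 0.29 and Syp with Sv2a reached 0.84. For that pair r was 0.47 with the series means removed as well. It was 0.85 in label series A alone and 0.14 in series B alone, and the cause was not tested.

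Genes whose pattern was most like the mean of the members were sought over all 24 arrays, points that share the label series and any shift of a whole array. Only genes with a mean signal at or above the median gene were searched. As a description, the closest were the GABA-B receptor subunit gene Gabbr2 (Pearson's r of 0.93, Spearman's rho of 0.94), the delta-catenin gene Ctnnd2 (0.93 and 0.95), the latrophilin gene Adgrl1 (0.93 and 0.91), Sorbs3 (0.92 and 0.91) and Dagla (0.92 and 0.93), an enzyme of endocannabinoid synthesis. With group and series means removed r stayed between 0.78 and 0.88. For Sv2a alone the closest genes were Slc49a4, Bmp1 and the other GABA-B subunit gene Gabbr1, at r of 0.85, and r was 0.46 to 0.50 once those means were removed.

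The wider vesicle cycle was read from 101 further genes, of which 96 were measured: fusion factors, other synaptotagmins, vesicle membrane and cargo proteins, active zone scaffolds and endocytic proteins. None of the 96 passed adjustment for strain, for sound or for the strain difference in response. In GASH/Sal minus Syrian 73 of 96 lay above 0, with a median of 0.046, while the median of all genes was -0.015 and that of the 2259 bright genes 0.030. Of the bright genes, 1460 of 2259 lay above 0. At an unadjusted p under 0.05, 11 of the 96 were higher and 2 lower, in a contrast in which 7.99% of all genes passed that threshold. The members themselves had a median of 0.0069, with 4 of 7 above 0. For sound the 96 split 48 above and 48 below 0. In series B minus A genes of every role passed adjustment. Of 23 endocytic genes 8 were higher and 1 lower, and of 22 vesicle membrane and cargo genes 5 and 1. Of 22 fusion factors 4 were higher and 1 lower, while 3 of 12 synaptotagmins and 2 of 17 active zone genes were higher. The shares beside these counts are 6.89% of all genes and 25.1% of the bright ones.

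By role, the median strain difference was 0.083 for 22 vesicle membrane and cargo genes (18 above 0), 0.054 for 23 endocytic genes (19 above 0), 0.038 for 17 active zone genes (12 above 0), 0.036 for 12 synaptotagmins (8 above 0) and 0.034 for 22 fusion factors (16 above 0). The gene with the smallest p in each role gave these values, none past adjustment. Snapin, a SNARE-binding protein, was at -0.19 (limma, unadjusted p = 0.00135, adjusted p = 0.420). Syt17 was at 0.25, the vesicle GTPase gene Rab3b at 0.15, the scaffold gene Cask at 0.17 and the dynamin gene Dnm3 at 0.12.

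For sound the corresponding genes included Syn3, the remaining synapsin, at 0.17 (limma, unadjusted p = 0.00349, adjusted p = 0.452). Rimbp2, which links calcium channels to the active zone, was at -0.18 (limma, adjusted p = 0.511). Napa, the SNARE-disassembly adaptor, was at 0.13, Syt4 at 0.12 and Synj1, a phosphatase of endocytosis, at -0.096. Syn3 and Syn2 thus both lay above 0 for sound, and neither passed.

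**Figure D4:**
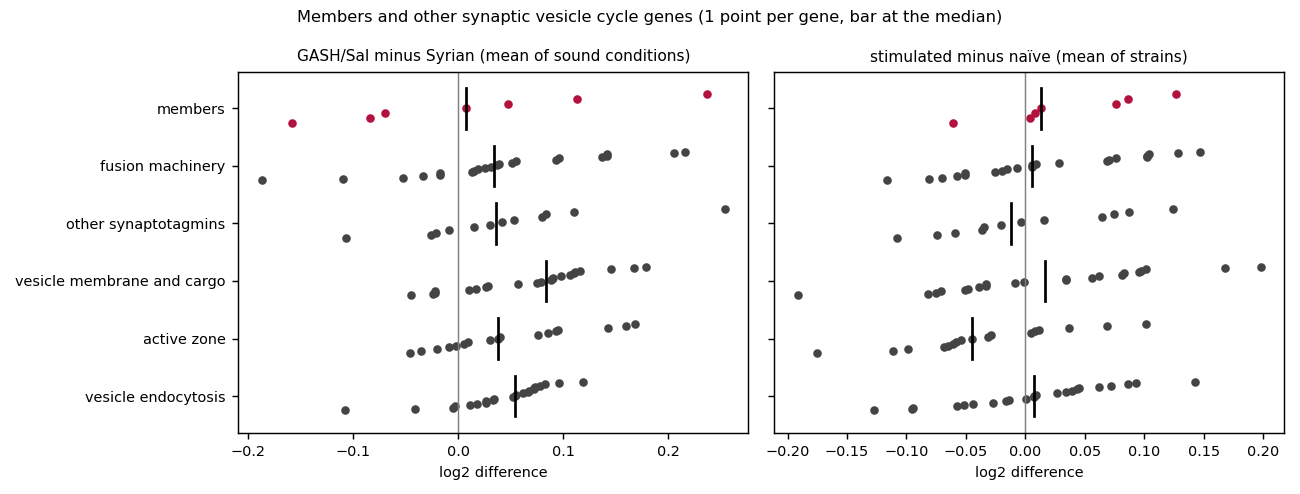
Log2 differences of the 7 members and of the 96 other vesicle cycle genes, 1 point per gene by role, for GASH/Sal minus Syrian (left) and stimulated minus naïve (right), with a bar at each median. In the strain panel every median is above 0, from 0.0069 for the members to 0.083 for vesicle membrane and cargo genes.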

How the data were processed

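The authors deposited log2 signals of 35556 probe sets for 24 arrays. The submitters' processing notes name RMA, with no version, which corrects background, normalises between arrays and summarises probes, and tends to compress fold changes. Probe sets with 1 symbol in the platform's annotation (21789, with 1621 carrying several and 12146 none listed) were reduced to the brightest per gene, leaving 19938 genes. No dim genes were removed for the main fit, while the most alike genes were sought among those at or above the median signal. Differences were fitted with limma 3.58.1 (R 4.3.3), lmFit and eBayes, with 4 groups and the label series as terms. P-values were two-sided and adjusted over all genes (Benjamini-Hochberg, threshold 0.05), and intervals are 95%. Each array was 1 animal, and the number of arrays limits the precision. Pairs of members were tested by 1e+05 permutations of arrays within group and label series.

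Same-numbered arrays deviated little together once group and series means were removed, so numbers were not used as pairs, although pairing was not settled. The named genes were the members, the most alike genes and, in each role, the gene with the smallest p for strain and for sound. Members, lists and tests were chosen with earlier results of these data known. Every column belonged to a sample of the series (0 left unused). The code was tested on simulated data.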

Additional observations from a re-analysis of the deposited data

Results flagged for a closer look

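Snap25 in replicate 6 of the naïve GASH/Sal animals had a signal of 8.87, with the nearest of its group at 9.60 and the highest at 9.88. It lay far from the other 5 arrays of that group. This was the only such case among 28 sets of a member and a group, and chance marks about 1 set in 20. The array is one of the 2 that stood apart over all genes, and it also held the highest Syn1 (8.93), Syn2 (7.62) and Syp (9.65) signals of its group. Without it, the response of Snap25 in GASH/Sal animals was 0.0063, against 0.13 with it.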

How the results depend on the processing

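No member passed adjustment for strain, for sound or for the strain difference in response under any alternative with the exception of Syn2 for sound in label series A alone, which made the count of members 1 (0.25, adjusted p = 0.0467). In series B alone the median of the members' responses in GASH/Sal animals was -0.056, against 0.091 over all arrays. With the replicate number as a block the count of members was 0 in all 7 contrasts. The medians could not move in that fit, because every group holds the same replicate numbers. After group and series means were removed, same-numbered arrays correlated by -0.21 to 0.12. With group means alone removed the values ran between -0.16 and 0.32. Each group holds 3 arrays per series, so removing those means limits what the values can show, and pairing was not settled. The label series contrast held 4 members, and 4 to 5 with each array left out in turn. The changes of sign that follow are of values that did not pass over all arrays, and the cause was not tested. The number of arrays and the mouse probes limit the precision, and no read depth exists for arrays.

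With label series A alone, the strain difference averaged over sound was -0.022 for Snap25, -0.14 for Syn1 and -0.047 for Syn2, in naïve animals -0.33 for Syn1 and -0.100 for Syn2, and in stimulated animals -0.033 for Snap25 and 0.083 for Sv2a. The strain difference in response was -0.022 for Snap25, 0.060 for Syp and 0.11 for Syn2. The response was 0.035 for Syt1 in GASH/Sal animals, and -0.057 for Stx1a, -0.017 for Syp and -0.11 for Sv2a in Syrian animals, and -0.064 for Stx1a over both strains.

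With label series B alone, the strain difference was 0.042 for Stx1a averaged over sound, and 0.089 for Stx1a and 0.052 for Syt1 in naïve animals, and that in response was -0.29 for Sv2a. The response in GASH/Sal animals was 0.025 for Stx1a, -0.030 for Syp, -0.056 for Sv2a, -0.093 for Syn1 and -0.11 for Syn2. It was -0.078 for Snap25 in Syrian animals, and -0.097 for Syn1 and -0.00044 for Syn2 over both strains.

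Without the 2 arrays that stood apart, an alternative chosen after seeing the data, the strain difference in naïve animals was 0.090 for Snap25 and -0.034 for Syn1, and -0.011 for Snap25 in stimulated animals. That in response was -0.10 for Snap25, 0.010 for Stx1a, 0.060 for Syp and 0.11 for Syn2. The response in Syrian animals was -0.030 for Stx1a, -0.023 for Syp and 0.00099 for Syn1, and over both strains -0.025 for Stx1a.

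With array weights, the strain difference in naïve animals was 0.035 for Snap25 and 0.026 for Syt1, and that in response -0.025 for Snap25, 0.037 for Syp and 0.034 for Syn2. The response was -0.020 for Syp and 0.029 for Syn1 in Syrian animals, and -0.0097 for Stx1a and -0.0017 for Syp over both strains, and the gap between series of the strain difference was -0.022 for Syt1. With arrays centred on their median, Syt1 was 0.031 for strain in naïve animals, Syp -0.0075 for the response in GASH/Sal animals, and Stx1a -0.0062 and Syp -0.0023 for the response over both strains. With quantile normalisation Snap25 was -0.030 for strain averaged over sound, Syp 0.034 for the strain difference in response and Syt1 0.017 for the response in GASH/Sal animals.

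With each array left out in turn, the strain difference ran between -0.037 and 0.070 for Snap25 averaged over sound. In naïve animals it ran between -0.13 and 0.087 for Snap25, -0.066 and 0.0045 for Stx1a, -0.037 and 0.047 for Syt1, and -0.038 and 0.25 for Syn1, and in stimulated animals between -0.0043 and 0.088 for Snap25. The strain difference in response ran between -0.034 and 0.18 for Snap25, -0.12 and 0.0067 for Stx1a, -0.036 and 0.028 for Syp, -0.029 and 0.10 for Sv2a, and -0.14 and 0.046 for Syn2. The response in GASH/Sal animals ran between -0.085 and 0.016 for Stx1a, -0.049 and 0.0043 for Syt1, and -0.026 and 0.035 for Syp. In Syrian animals it ran between -0.030 and 0.079 for Stx1a, -0.022 and 0.023 for Syp, and -0.13 and 0.023 for Syn1. Over both strains it ran between -0.027 and 0.028 for Stx1a, -0.0083 and 0.022 for Syp, and -0.021 and 0.10 for Syn1. The gap between series of the strain difference ran between -0.031 and 0.19 for Snap25 and -0.0085 and 0.056 for Syp, and the series difference of Stx1a between -0.046 and 0.0084.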
